A study of Homo sapiens with 24 samples.

Results

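Nascent RNA of 3 U2OS lines was compared before any hormone was added, to ask which genes already differ between lines that carry mutant glucocorticoid receptor (GR) and the line that carries the wild-type receptor, and whether known GR targets are among them. Of the 24 libraries of the series, the 6 taken at 0 h were used, 2 for each line. They were picked by their line and time labels, and the comparison was chosen with earlier results of these data known. U2OS is a human osteosarcoma cell line with little receptor of its own, and each line carries GR with a C-terminal HaloTag under a CMV promoter, inserted by PiggyBac transposition and selected with puromycin. The wt line carries the unchanged receptor. The SoF line carries K492A, which weakens RNA binding strongly and DNA binding to a lesser degree, and the Ctrl line carries R470A, a control change that weakens DNA binding and keeps RNA binding. All cells grew in charcoal-stripped serum, received 0.01% ethanol (the vehicle) in place of dexamethasone, and were given 200 µM 4-thiouridine during the final hour, so that the sequenced RNA is mostly RNA made in that hour. Each line is 1 pool sorted by fluorescence, with its own insertion sites, and the 2 libraries of a line come from that pool. What the construct does and what the pool does cannot be told apart, and p-values measure the spread between these libraries only.

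GR is a nuclear receptor that, in the usual account, waits in the cytoplasm in a complex with HSP90 and other chaperones. In its own cells, the study also saw a large part of the receptor signal in the nucleus without dexamethasone. When a glucocorticoid binds, the receptor enters the nucleus, binds DNA at glucocorticoid response elements near genes such as FKBP5, TSC22D3 and PER1 and raises their transcription, and lowers that of many inflammatory genes that depend on NF-kB and AP-1. Their levels in ethanol describe the lines before that response begins.

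The receptor gene itself marks the lines. NR3C1, which encodes GR, stood at 551 and 837 CPM (counts scaled per library to a total of 1e+06 after TMM normalization) in the wt libraries, at 2857 and 2482 in SoF and at 3230 and 3466 in Ctrl. Every mutant library lay above both wt libraries, by 1.97 ± 0.17 (SE) on the log2 scale in SoF and 2.28 ± 0.17 in Ctrl. The difference between SoF and Ctrl missed the threshold (log2 difference of SoF from Ctrl -0.32 ± 0.16, adjusted p = 0.418). Reads of the introduced and the endogenous copy were counted together, so this is the sum of both, and it was known when the lines were chosen for comparison. The study picked the sorted fractions so that nuclear receptor protein matched between lines, by immunofluorescence after dexamethasone. These RNA levels therefore do not give the amount of receptor protein.

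**Figure D1:**
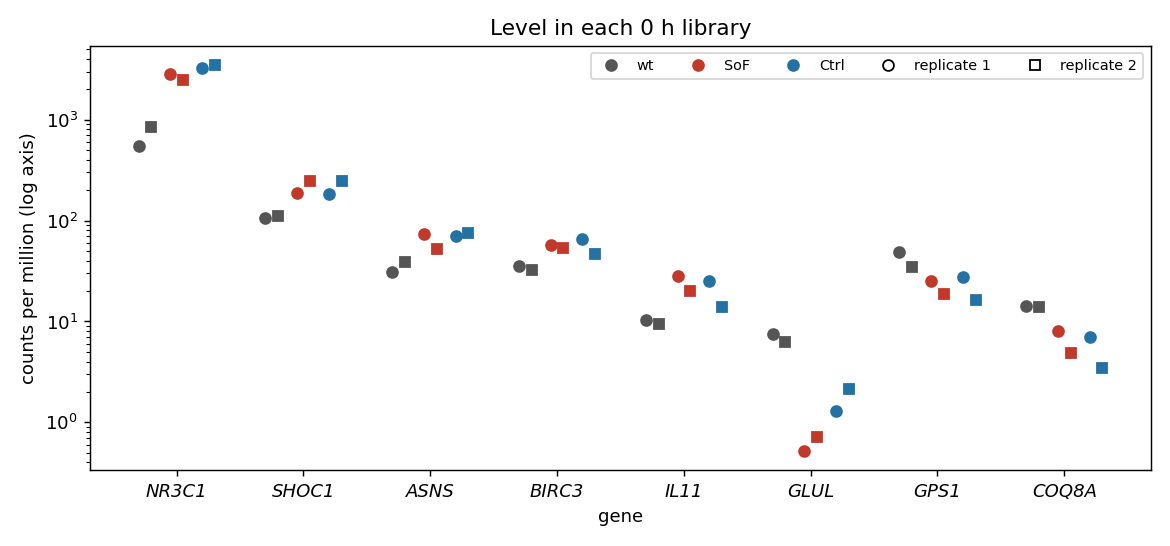
Level of 8 genes in each 0 h library, in CPM on a log axis, with 1 point for each library (circles replicate 1, squares replicate 2, colours the 3 lines). NR3C1, SHOC1, ASNS, BIRC3 and IL11 lie higher in all 4 mutant libraries than in both wt libraries, and GLUL, GPS1 and COQ8A lie lower.

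Total counts ran from 8106036 to 15820806 in the 6 libraries, and both replicate 2 libraries of the mutant lines were the shallowest. COL1A1, SPARC, VIM and other mesenchymal markers summed to 1310 to 2000 CPM. Of 19 osteoblast and matrix genes listed, 13 had enough counts to test, among them RUNX2 (122 to 161 CPM) and ALPL (8.14 to 15.6). The others, SP7, IBSP, COL1A2, POSTN, DCN and DLX5, stayed below 1 CPM in every library. Blood markers summed to 0.808 to 2.05 CPM, endothelial markers to 4.93 to 8.71, epithelial markers to 9.42 to 20.8 and neural markers to 100 to 124, the last mostly from TUBB3 (53.3 to 93.1). Replicate number was a strong term: the deviations of replicate 1 from replicate 2 correlated across genes by 0.424 between wt and SoF, 0.419 between wt and Ctrl and 0.605 between SoF and Ctrl, and 6179 of 22329 genes tested were called for replicate (adjusted p under 0.05). The study pulled down labelled RNA in sample replicate pairs and does not say whether same-numbered libraries of different lines shared a pulldown. For the correlations above, replicate was kept as a block except where a fit without it is named.

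With that block, 2968 genes differed between SoF and wt (13.3% of those tested), 1566 higher (7.01%) and 1402 lower (6.28%). Ctrl differed from wt at 2291 genes (10.3%), 913 higher (4.09%) and 1378 lower (6.17%). The number called in the same direction in both was 1118 (5.01%), with 475 higher (2.13%) and 643 lower (2.88%), and 14 genes were called in opposite directions. Both comparisons use the same 2 wt libraries, so an odd wt library enters both alike and the shared count is not evidence from separate experiments. SoF and Ctrl differed directly at 407 genes (1.82%), and 9 of the shared genes were among these. Without the replicate block edgeR called 0 shared genes and DESeq2 called 2, although 1819 genes in SoF and 1633 in Ctrl had an unadjusted p under 0.05 by edgeR. Without SoF replicate 2 the shared count was 104, and without wt replicate 1 it was 3087.

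**Figure D2:**
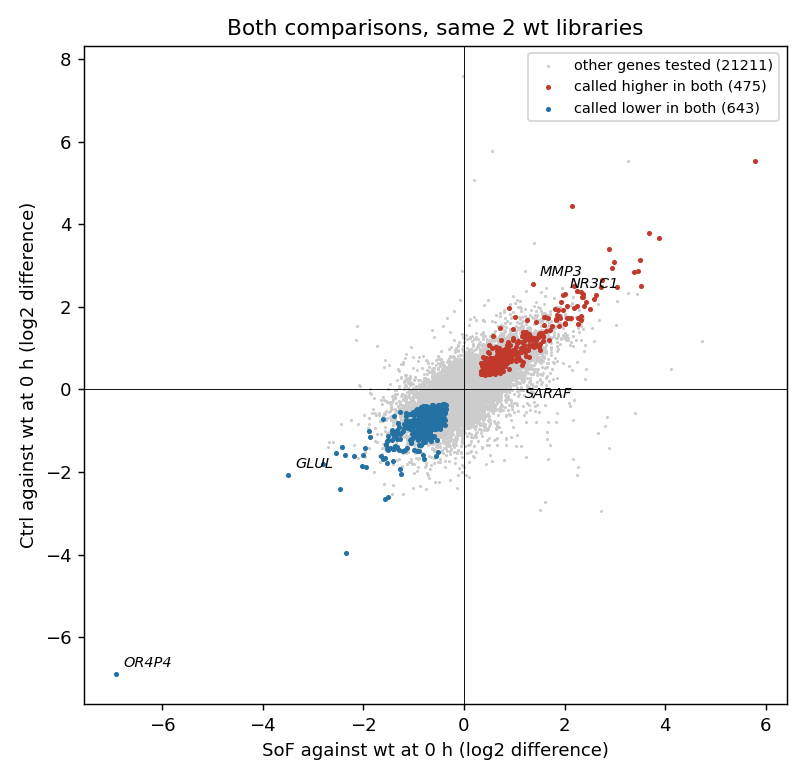
Log2 difference from wt at 0 h of every gene tested, SoF on the horizontal and Ctrl on the vertical axis, with 475 genes called higher in both in red and 643 called lower in both in blue. The cloud slopes upward in part because both axes subtract the same 2 wt libraries. OR4P4 lies alone at the lower left, and SARAF lies to the right of and below 0.

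The shared genes also followed the replicates. Of the 475 higher genes, 91.2% were higher in replicate 2 than in replicate 1 (median log2 difference 0.47), against 11.8% of the 643 lower genes (median -0.43) and 50% of all genes tested (median 0.00). The replicate gap itself was wider in the mutant lines, with an SD across genes of 0.592 in SoF and 0.591 in Ctrl against 0.474 in wt. Whether this unequal gap accounts for part of the shared genes was not tested. Gene length ran with the direction too. The higher genes had a median span of 39000 bp and the lower ones 6150 bp, beside 20000 bp over all genes tested, and long noncoding RNAs were 29.3% of the higher and 7.0% of the lower genes, beside 21.3% of all.

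**Figure D3:**
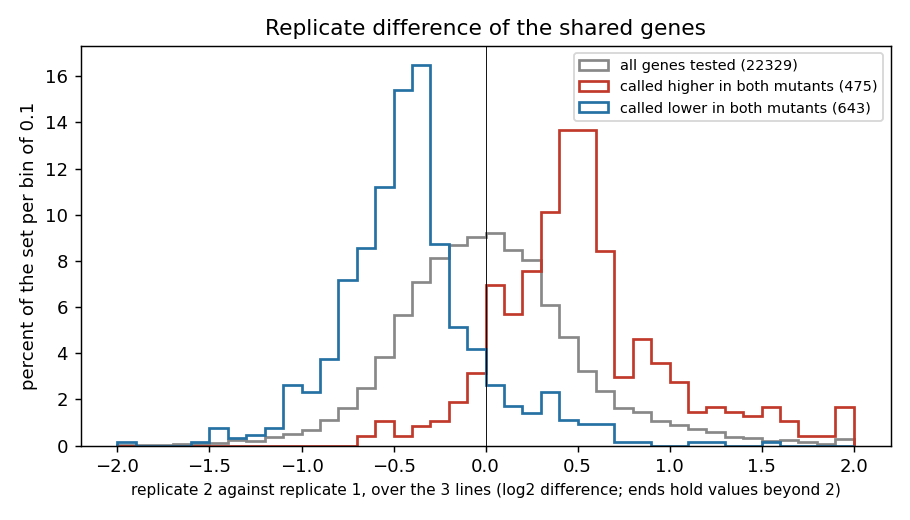
Distribution of the log2 difference of replicate 2 from replicate 1, averaged over the 3 lines, as a percent of each set per bin of 0.1. Genes called higher in both mutants (red) sit mostly to the right of 0 and genes called lower (blue) mostly to the left, while all genes tested (grey) centre on 0.

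The 18 libraries from 1 h to 3 h of 100 nM dexamethasone come from the same pools and did not enter the 0 h fit. There, 162 of 468 shared higher genes (34.6%) were called higher in both mutants, where 2.62% of all genes were, and none was called lower in either. Among shared lower genes the count was 212 of 642 (33.0%), where the share over all genes was 3.03%, and 2 were called higher in at least 1 mutant. These libraries had received hormone, so a line difference there can also hold a difference in the hormone response. Requiring in addition that all 4 mutant libraries at 0 h lie beyond both wt libraries, which 21.4% of all genes do, left 132 higher and 171 lower genes. The genes named next are the 15 in each direction with the largest smaller difference among the protein-coding ones of these at a mean of 5 CPM or more, a limit set after the values had been seen.

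Among the higher genes, SHOC1, a meiosis gene, stood at 106 and 110 CPM in wt, 186 and 246 in SoF and 183 and 244 in Ctrl. It rose by 0.98 ± 0.12 (SE) on the log2 scale in SoF (adjusted p = 1e-04) and 0.97 ± 0.12 in Ctrl (adjusted p = 0.000208). CYP4F11, a fatty acid and drug oxidising cytochrome P450, was at 5.99 and 3.99 CPM in wt, 10.2 and 9.32 in SoF and 14.1 and 9.52 in Ctrl (log2 difference 0.97 ± 0.21 and 1.25 ± 0.20). TRAF1, an adaptor of TNF receptors, was at 13.9 and 13.8 CPM in wt against 39.8 and 27.1 in SoF and 36.2 and 18.7 in Ctrl. No overlap at 0 h and calls at 1 h to 3 h were conditions for naming these genes, so neither adds support. The log2 differences of TRAF1 were 1.25 ± 0.17 and 0.95 ± 0.18. KIF1A, a kinesin motor known from neurons, rose by 0.89 ± 0.22 in SoF and further in Ctrl, by 1.98 ± 0.20, and the difference between the mutants passed the test (adjusted p = 0.00404). EID3, an inhibitor of EP300 that also sits in the SMC5/6 complex, rose by 1.34 ± 0.22 and 1.28 ± 0.22. The others named by the rule, besides NR3C1, IL11 and ASNS, were TAS2R4, ANKEF1, ANK2, ZNF195, KYAT3, KCNG1 and PSMG4, with log2 differences between 0.64 and 1.00.

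Among the lower genes, GPS1, a subunit of the COP9 signalosome, stood at 48.8 and 34.3 CPM in wt, 25 and 18.9 in SoF and 27.4 and 16.3 in Ctrl. It fell by 0.92 on the log2 scale in SoF (SE 0.13, adjusted p = 0.000577) and by 0.93 in Ctrl (SE 0.14, adjusted p = 0.000621). COQ8A, a kinase-like protein of coenzyme Q synthesis, was at 14.1 and 13.9 CPM in wt against 8.1 and 4.82 in SoF and 7.06 and 3.45 in Ctrl. ITGB4, the beta subunit of the hemidesmosome integrin, fell by 1.02 ± 0.19 and 0.98 ± 0.19, and CHRM3, a muscarinic acetylcholine receptor, by 1.05 ± 0.22 and 1.24 ± 0.23. Further members were IGFL3, CD200, TMPRSS3, RASSF7, DMKN, SRPX, C1orf35, RFNG, RFPL4AL1, A2M and RNF187.

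OR4P4, an olfactory receptor gene, was read in wt alone. It had 17 counts in each wt library (1.14 and 1.33 CPM) and 0 in each of the 4 mutant libraries. With a floor of 3 counts over the group, it was at least 9.52-fold lower in SoF and at least 9.14-fold lower in Ctrl, and it was also called lower in both at 1 h to 3 h. Other lower genes with large fitted folds included protein-coding ones at low levels, among them RNASE1, a secreted ribonuclease (-1.95 in SoF and -1.88 in Ctrl), and KRT14, a basal keratin (-1.57 and -1.65). The higher genes with the largest fitted folds were mostly pseudogenes and unnamed genes under 1 CPM. At that level 2 to 10 counts in a library decide the fold, as for the noncoding gene ENSG00000233358, with 0 counts in wt, 2 and 10 in SoF and 2 and 7 in Ctrl.

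Known GR-induced genes were called in both directions. Of 38 listed, 30 passed the low-count filter. In SoF 4 were higher and 5 lower, where 7.01% and 6.28% of all genes were, and in Ctrl 4 were higher and 2 lower, beside 4.09% and 6.17%. The median log2 difference of the list was 0.05 in SoF and 0.16 in Ctrl, beside -0.01 and 0.00 over all genes tested. FKBP5, the HSP90 cochaperone that feeds back on the receptor, stood at 22.8 and 28.5 CPM in wt, 19.6 and 27.9 in SoF and 31.8 and 34.1 in Ctrl. The groups overlap for SoF (log2 difference -0.12 ± 0.14, adjusted p = 0.587), and for Ctrl the difference of 0.38 ± 0.14 missed the threshold (adjusted p = 0.0833). TSC22D3, which encodes the anti-inflammatory protein GILZ, had 16.7 and 17.4 CPM in wt, 25.4 and 15.7 in SoF and 21.7 and 22.2 in Ctrl (0.27 ± 0.17 and 0.36 ± 0.17, neither called). PER1 and KLF9, a clock gene and a Krüppel-like factor, and DUSP1, SGK1 and CEBPB were not called in either line, with log2 differences between -0.13 and 0.39. ZBTB16, ANGPTL4, SCNN1A, IRS2, IGFBP1, TAT, PCK1 and HIF3A were too low to test, at under 1 CPM in every library. A call that misses the threshold with 2 libraries a line does not show equal levels.

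GLUL, BIRC3 and ERRFI1 were the GR-induced genes called alike in both lines. This count turned on single libraries. Without wt replicate 2, 8 of the list were higher and 1 lower in both, without wt replicate 1, 2 were higher and 5 lower, and without Ctrl replicate 1, 0 were higher and 4 lower. GLUL (chr1:182378098-182392206, minus strand, hg38) encodes glutamine synthetase. It stood at 7.54 and 6.26 CPM in wt, at 0.52 and 0.72 in SoF and at 1.30 and 2.14 in Ctrl. No mutant library came near either wt library. The gene fell by 3.50 ± 0.37 on the log2 scale in SoF (adjusted p = 3.09e-05) and by 2.08 ± 0.31 in Ctrl (adjusted p = 0.000678), kept both calls without any 1 of the 6 libraries, and had log2 differences of -3.24 and -2.42 at 1 h to 3 h, both called. Without the replicate block edgeR called it in neither line, and DESeq2 with the block called it in SoF and not in Ctrl.

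BIRC3, an inhibitor of apoptosis that NF-kB also induces, moved the other way. Its levels were 35.1 and 32.1 CPM in wt, 57.4 and 54.0 in SoF and 66.0 and 46.9 in Ctrl, with log2 differences of 0.73 ± 0.13 (adjusted p = 0.0022) and 0.74 ± 0.13 (adjusted p = 0.00202). The SoF call of BIRC3 was lost without SoF replicate 2 and its Ctrl call without Ctrl replicate 1. ERRFI1, a feedback inhibitor of the EGF receptor, stood at 211 and 285 CPM in wt, 357 and 353 in SoF and 426 and 371 in Ctrl (0.52 ± 0.13 and 0.69 ± 0.13). Its SoF call was lost without wt replicate 1 or either SoF library, and its Ctrl call without Ctrl replicate 1. Neither BIRC3 nor ERRFI1 was called in both mutants at 1 h to 3 h.

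The remaining calls were made in 1 line. In SoF, GPX3, an extracellular glutathione peroxidase, and CRISPLD2 were higher, by 0.92 ± 0.25 and 0.62 ± 0.19, and MT2A, MT1E, RGS2 and LCN2 were lower. MT2A, a metallothionein, stood at 187 and 168 CPM in wt, 160 and 82.7 in SoF and 267 and 97.0 in Ctrl, so SoF replicate 2 carried its lower level and replicates differed more than lines. In Ctrl, DDIT4, an mTORC1 inhibitor, and TNFAIP3, an NF-kB inhibitor, were higher and PDK4 lower. PDK4, the kinase that shuts off pyruvate dehydrogenase, had 2.42 and 5.79 CPM in wt, 3.12 and 5.94 in SoF and 0.94 and 1.67 in Ctrl. Its Ctrl level fell by 1.6 ± 0.33 (adjusted p = 0.00646), and SoF and Ctrl differed (adjusted p = 0.00846).

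**Figure D4:**
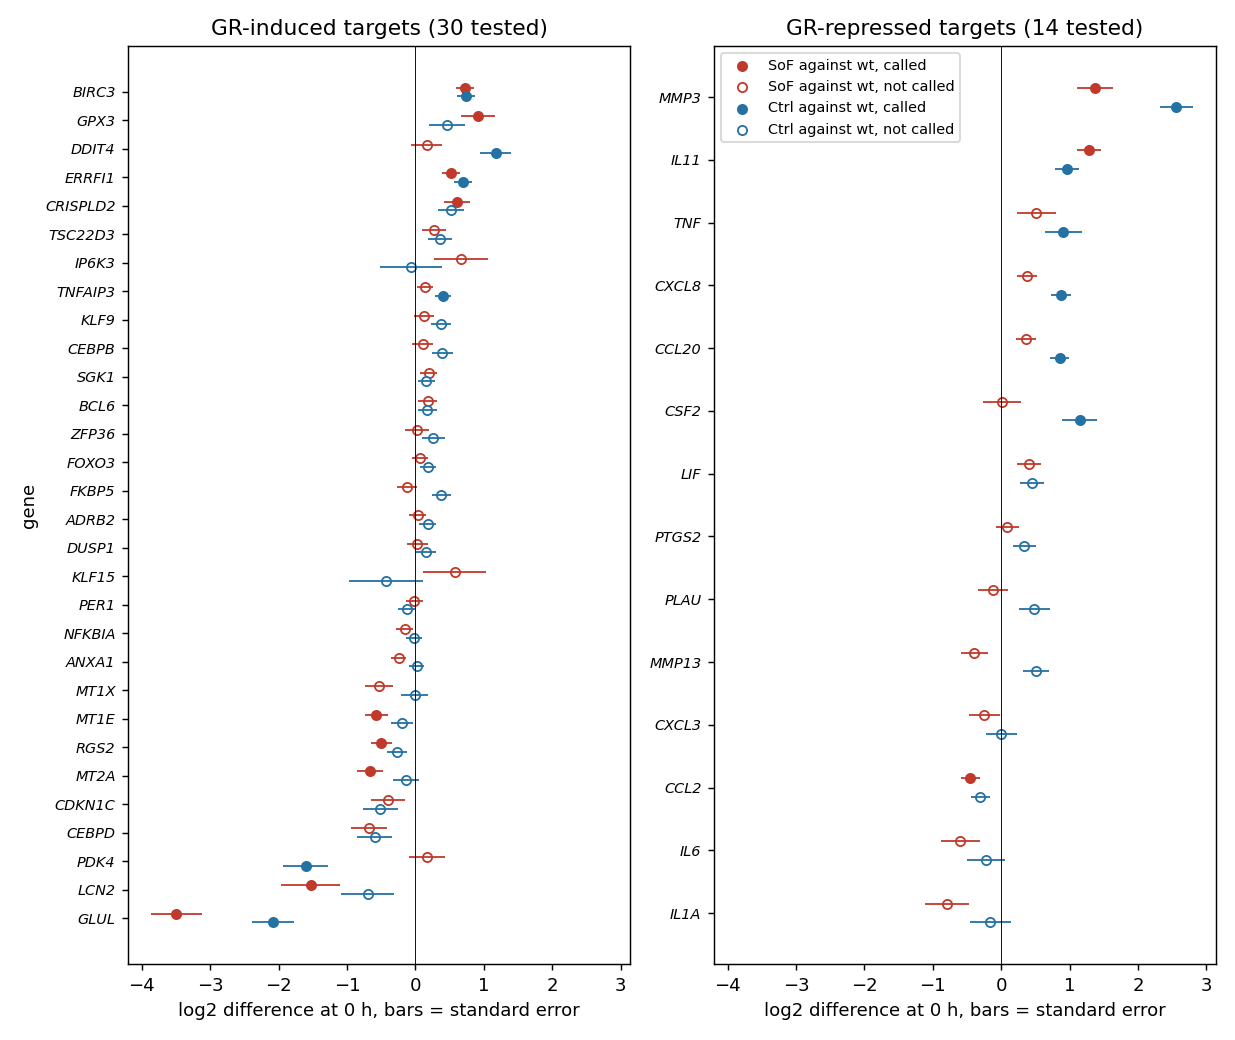
Log2 difference from wt at 0 h for the 30 GR-induced and the 14 GR-repressed genes tested, SoF in red and Ctrl in blue, with filled points called and bars of 1 standard error. Most GR-induced genes sit near 0 with GLUL far to the left, while MMP3 and IL11 lie to the right in both lines.

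Of 21 GR-repressed genes 14 were tested, and none was called lower in both lines, while IL11 and MMP3 were higher in both. DESeq2 with the block also called 2 of the list higher in both, while no replicate block and the fit of all 24 libraries each gave 0. With 1 library left out in turn, the log2 difference of IL11 ran from 0.97 to 1.54 in SoF and 0.64 to 1.23 in Ctrl. That of MMP3 ran from 1.05 to 1.57 in SoF and 2.22 to 2.78 in Ctrl. SoF had 2 higher and 1 lower (CCL2), where 7.01% and 6.28% of all genes were, and Ctrl had 6 higher and 0 lower, beside 4.09% and 6.17%. The median log2 difference was 0.05 in SoF and 0.50 in Ctrl, beside -0.01 and 0.00 over all genes tested. IL11, a cytokine of the IL-6 family, stood at 10.2 and 9.54 CPM in wt, 28.4 and 20.2 in SoF and 25.3 and 13.8 in Ctrl. It rose by 1.28 ± 0.17 in SoF (adjusted p = 0.000322) and 0.96 ± 0.18 in Ctrl (adjusted p = 0.003), and it was higher in both at 1 h to 3 h (0.86 and 1.06). MMP3, the matrix protease stromelysin-1, rose from 2.49 and 2.03 CPM in wt to 6.91 and 4.82 in SoF and 17.9 and 9.04 in Ctrl, and the rise was larger in Ctrl than in SoF (adjusted p = 0.00505). CXCL8 and CCL20, both chemokines, were higher in Ctrl by 0.88 ± 0.15 and 0.85 ± 0.14, and CSF2 and TNF by 1.15 ± 0.26 and 0.91 ± 0.27. CSF2 stood at 37.2 CPM in Ctrl replicate 1 against 10.5 in replicate 2 and 10.6 and 9.54 in wt, so 1 library carried its call. The TNF call was lost without Ctrl replicate 1, at a log2 difference of 0.17, and without wt replicate 1, and the CXCL8 call without Ctrl replicate 1, at 0.53. IL6 was not called in either line (4.85 and 3.60 CPM in wt, 3.05 and 2.56 in SoF, 4.83 and 2.26 in Ctrl).

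Several of these genes answer to NF-kB, the inflammatory transcription factor. Of 24 NF-kB targets, a list drawn up after the calls had been seen, 20 were tested, 3 were higher in both lines (TRAF1, BIRC3 and NFKB1), none was lower in both, and 9 were higher in Ctrl. Over all genes 2.13% were higher in both and 4.09% in Ctrl. None was called in both without the block, and leaving out Ctrl replicate 1 left 0, SoF replicate 2 left 1 and wt replicate 1 gave 5 higher in both. The median of the list was 0.11 in SoF and 0.34 in Ctrl.

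Genes that changed between 1 h and 3 h of dexamethasone, in libraries the 0 h fit did not use, differed in direction at 0 h. No ethanol library was taken at 1 h to 3 h. A change with hormone therefore cannot be told apart from a change with time. Over all genes, 7.01% were higher and 6.28% lower in SoF and 4.09% and 6.17% in Ctrl, with medians of -0.01 and 0.00. Of the 1113 rising genes tested, 16 were higher and 195 lower in SoF, and 30 were higher and 146 lower in Ctrl (medians -0.30 and -0.22). Of the 1707 falling genes, 290 were higher and 46 lower in SoF, and 142 were higher and 73 lower in Ctrl (medians 0.34 and 0.25). The replicate difference ran the same way, with a median of -0.40 for the rising and 0.57 for the falling genes, and its part in these counts was not tested.

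Of 25 chaperones and coregulators of the receptor tested, NCOA3, a steroid receptor coactivator, was higher in both lines (0.48 ± 0.12 and 0.62 ± 0.12), and STUB1, a ubiquitin ligase that works with chaperones, was lower in both (-0.50 ± 0.15 and -0.76 ± 0.16), beside 2.13% and 2.88% of all genes. Without wt replicate 1, 0 were higher and 5 lower in both, and without either SoF library none was called in both. HSP90AA1, which encodes HSP90 alpha, fell in SoF from 388 and 396 CPM to 309 and 260, by 0.47 ± 0.11, and stood at 390 and 381 in Ctrl. NR3C2, the mineralocorticoid receptor, fell in Ctrl by 0.49 ± 0.13 and differed between the mutants (adjusted p = 0.00609).

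Histone mRNAs fell as a family. The clustered histone genes encode the core and linker histones made during DNA replication, and they were grouped after the calls had been seen. Of 50 tested, 45 were lower in SoF, 39 lower in Ctrl and 39 lower in both, where 2.88% of all genes were. Their median log2 difference was -0.78 in SoF and -0.53 in Ctrl. H2AC20 stood at 770 and 515 CPM in wt, 371 and 283 in SoF and 499 and 348 in Ctrl. It fell by 0.96 ± 0.11 and by 0.60 ± 0.11, and both calls held without any 1 library. H1-1, a linker histone, stood at 134 and 140 CPM in wt, 54.4 and 68.9 in SoF and 97.9 and 66.6 in Ctrl. Reads of near-identical copies such as H4C14 and H4C15, H2AC18 and H2AC19, or H3C14 and H3C15 could be counted at either, so their equal values are not separate measurements.

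Leaving out 1 library at a time gave 4 (without Ctrl replicate 2), 18 and 23 (without SoF replicate 1 and 2) and up to 41 histone genes lower in both. The fit of all 24 libraries gave 6, and no replicate block gave 0. At 1 h to 3 h, 44 of 49 were lower in SoF and 20 in Ctrl, where 10.5% and 7.20% of all genes were, and 19 were lower in both. H4C4 went against the family in SoF, where it was higher, and not in Ctrl, where it was not called. It stood at 3.30 and 2.42 CPM in wt, 11.3 and 9.02 in SoF and 1.80 and 1.55 in Ctrl. Among 18 proliferation genes, PCNA, PLK1 and E2F1 were lower in both, where 2.88% of all genes were, and MCM2 in SoF, and none was higher. Those shared calls fell to 0 without either SoF library, without Ctrl replicate 1 and in the fit of all 24 libraries, and to 1 without Ctrl replicate 2. PCNA, the sliding clamp of DNA polymerase, stood at 217 and 166 CPM in wt, 142 and 105 in SoF and 163 and 132 in Ctrl.

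Mitochondrially encoded mRNAs fell too. Of the 13, which encode subunits of the respiratory chain and ATP synthase, 10 were lower in SoF, 9 in Ctrl and 9 in both, where 6.28%, 6.17% and 2.88% of all genes were, with medians of -0.54 and -0.55. MT-ND5, a complex I subunit, stood at 4426 and 3819 CPM in wt, 2741 and 2279 in SoF and 2368 and 2185 in Ctrl. It fell by 0.72 ± 0.13 and 0.85 ± 0.13. Mitochondrial genes took 6.34% and 5.63% of the counts in wt, 4.80% and 4.03% in SoF and 4.56% and 4.30% in Ctrl, so wt lay above the mutants in both replicates. The number lower in both was 0 without either SoF library, 1 and 5 without Ctrl replicate 1 and 2, 11 without wt replicate 1 and 0 with no replicate block. At 1 h to 3 h 8 were lower in SoF and 4 in Ctrl, beside 10.5% and 7.20% of all genes.

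Amino acid genes, also grouped after the calls had been seen, held a few shared rises. ASNS, which makes asparagine, stood at 30.8 and 38.7 CPM in wt, 73.8 and 52.1 in SoF and 69.7 and 75.8 in Ctrl. It rose by 0.86 ± 0.16 and 1.07 ± 0.15. A call in both at 1 h to 3 h was a condition for naming it among the higher genes above. SLC7A11, the cystine transporter, rose in both as well (0.61 ± 0.12 and 0.72 ± 0.12). ATF4, the factor that induces both, was called lower in both, from 792 and 677 CPM in wt to 648 and 479 in SoF and 575 and 519 in Ctrl. Its call in both held only without wt replicate 1, of the 6 libraries left out in turn. Of 17 genes of this response 2 were higher and 1 lower in both, beside 2.13% and 2.88% of all genes, and 0 were called in both without SoF replicate 1. Of 16 cytosolic aminoacyl-tRNA synthetases LARS1 and GARS1 were higher in both, beside the same 2.13%. That count was 0 without SoF replicate 2 or either Ctrl library, 1 without wt replicate 2 or SoF replicate 1, and 4 without wt replicate 1.

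Immediate-early, matrix and interferon genes held few shared calls, beside 2.13% of all genes higher and 2.88% lower in both. NR4A2, an orphan nuclear receptor induced within minutes of a stimulus, was the shared higher gene among 22 immediate-early genes tested (71 and 96 CPM in wt, 138 and 142 in SoF, 121 and 122 in Ctrl). Of 13 matrix and osteoblast genes tested, TNC, an extracellular matrix glycoprotein, was higher in both, and COL1A1 and LUM, a collagen and a collagen-binding proteoglycan, were lower in both. Without SoF replicate 2 none of these 13 was called in both. IFIT1, an antiviral protein induced by interferon, was lower in both among 14 interferon-stimulated genes, a call that held only without wt replicate 2 when each library was left out in turn. Without wt replicate 1, 6 immediate-early genes were lower in both, and without wt replicate 2, 9 were higher in both. Of the genes named here, LUM, TNC and IFIT1 were also called in both at 1 h to 3 h.

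The promoter windows of 3 of the genes scanned are shown: ASNS and BIRC3 rose and GLUL fell. Each runs from 250 bases before to 50 after the annotated start (RefSeq, GRCh38.p14), 5′ to 3′ on the strand of the gene. Capitals mark, on either strand, the amino acid response element of ASNS (TGATGAAAC, the site at which ATF4 acts), the GR half-site TGTTCT and the NF-kB consensus. ASNS holds the first at -68 and a half-site at -247, counted from the start to the first base of the match, and BIRC3 holds the NF-kB consensus in 2 places. GLUL holds none of the 3. IL11, ERRFI1 and TRAF1, which also rose in both lines, were scanned as well and hold none of the 3.
ASNS, chr7:97872359-97872658, minus strand: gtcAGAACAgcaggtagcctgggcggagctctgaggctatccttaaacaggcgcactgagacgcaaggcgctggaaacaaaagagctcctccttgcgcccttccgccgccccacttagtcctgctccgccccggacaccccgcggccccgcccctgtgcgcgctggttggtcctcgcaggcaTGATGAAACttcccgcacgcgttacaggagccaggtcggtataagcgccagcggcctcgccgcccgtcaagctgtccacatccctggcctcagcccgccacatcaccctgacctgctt
BIRC3, chr11:102317234-102317533, plus strand: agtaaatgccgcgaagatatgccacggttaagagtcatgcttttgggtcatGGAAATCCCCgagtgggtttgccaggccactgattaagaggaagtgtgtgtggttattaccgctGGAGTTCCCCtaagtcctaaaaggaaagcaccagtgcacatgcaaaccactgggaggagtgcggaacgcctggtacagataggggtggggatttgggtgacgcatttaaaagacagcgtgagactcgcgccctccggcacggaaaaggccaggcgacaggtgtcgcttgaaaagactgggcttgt
GLUL, chr1:182391741-182392040, minus strand: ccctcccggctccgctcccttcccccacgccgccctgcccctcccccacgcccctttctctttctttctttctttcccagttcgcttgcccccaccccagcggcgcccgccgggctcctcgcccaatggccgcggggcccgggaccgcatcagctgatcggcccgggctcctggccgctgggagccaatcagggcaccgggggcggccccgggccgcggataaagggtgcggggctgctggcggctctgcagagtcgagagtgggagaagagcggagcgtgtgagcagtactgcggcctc

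Promoters were found for 242 of the 475 shared higher and 394 of the 642 shared lower gene symbols. A GR half-site stood in 11.2% of the higher and 10.4% of the lower windows, beside 9.64% over all genes tested and 14.9% over all promoters of the reference. The full palindrome of 2 half-sites 3 bases apart was in none of the windows of genes tested. The element TGATGAAAC stood in 3 higher windows (ASNS, GPATCH2L and KRT34, 1.24%) and 0 lower ones, beside 0.119% over all genes tested and 0.22% over all promoters. It is the element of ASNS itself, so the ASNS match was fixed by that choice and the 1.24% is no test of the element. The NF-kB consensus stood in 6.2% and 7.36%, beside 6.54% over all genes tested and 5.72% over all promoters. A match of letters is a description of the window and not a bound site.

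Shared genes were not spread evenly over the chromosomes. On chromosome 20, 33 of 563 genes tested (5.86%) were higher in both, beside 2.13% of all genes, and 31 of these 33 lay beyond 30 Mb. Of the 132 higher genes also called at 1 h to 3 h and without overlap, 23 were on chromosome 20 (4.09% of the genes tested there, beside 0.591% of all genes). The 378 genes beyond 30 Mb had a median log2 difference of 0.11 in SoF and 0.14 in Ctrl at 0 h and of 0.13 and 0.20 at 1 h to 3 h. The 185 genes before 30 Mb had medians of -0.13 and 0.02. Chromosome 21 had 18 of 303 higher (5.94%), and chromosome 22 had 33 of 589 lower (5.60%), beside 2.13% and 2.88% of all genes. Of 1169 genes tested on chromosome 3, 119 were higher (10.2%) and 49 lower (4.19%) in SoF, beside 7.01% and 6.28% of all genes. In Ctrl 31 were higher (2.65%) and 147 lower (12.6%), beside 4.09% and 6.17%. Other chromosomes held such shares too, with 14.0% higher in SoF on chromosome 18 and 11.9% lower in Ctrl on chromosome 22. DNA copy number of the pools was not measured here.

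**Figure D5:**
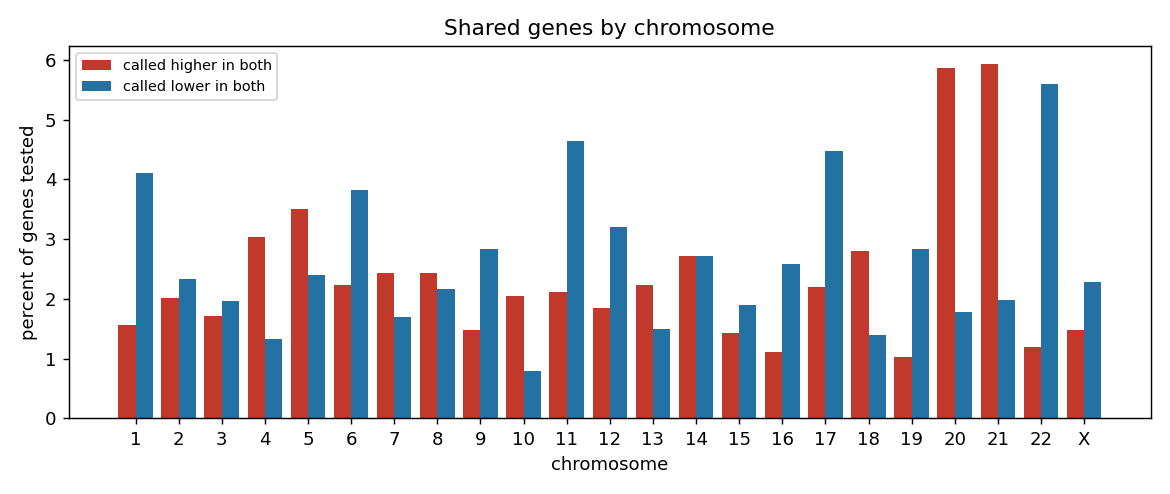
Percent of the genes tested on each chromosome that were called higher (red) or lower (blue) in both mutants at 0 h, for chromosomes 1 to 22 and X. Of those drawn, chromosomes 20 and 21 stand out for higher genes at 5.86% and 5.94%, and chromosome 22 for lower genes at 5.60%.

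Some differences belonged to 1 mutant, by the test between SoF and Ctrl. HMBOX1, a homeobox factor, stood at 50.4 and 61.2 CPM in wt, 120 and 165 in SoF and 52.3 and 71.3 in Ctrl (log2 difference of SoF from wt 1.34 ± 0.11, adjusted p between SoF and Ctrl 6.9e-06). DCTN6 and LINC01029 were likewise higher in SoF, by 1.38 ± 0.12 and 1.63 ± 0.14. The study singled out these genes on these libraries, so they are not independent evidence. In Ctrl, ZNF154, a zinc finger gene, stood at 7.49 and 9.52 CPM against 0.14 and 0.16 in wt and 0.07 and 0.41 in SoF. PDGFC, a platelet-derived growth factor, fell in Ctrl by 1.37 ± 0.12 to 32.3 and 38.8 CPM, from 76.5 and 109 in wt.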

How the data were processed

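The lines were labelled with 4-thiouridine, and biotinylated RNA was pulled down and sequenced. The authors removed adapters with Trim Galore 0.6.6, aligned reads with STAR 2.7.3a, collapsed molecular identifiers with UMI-tools 1.1.2 and counted exon reads with featureCounts on hg38. The deposited values are raw counts per gene, called stranded by the table's name. The lists and the comparison were chosen with earlier results of these data known.

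From the 61533 genes, 22329 passed filterByExpr (at least 10 counts in enough libraries and 15 in all) and were fitted with edgeR 4.0.16 in R 4.3.3 (TMM scaling, quasi-likelihood test, line plus replicate block, 2 residual degrees of freedom, Benjamini-Hochberg adjustment over all genes tested, called at adjusted p under 0.05). The same fit was made on the 18 libraries of 1 h to 3 h with time and replicate as blocks. The dexamethasone lists held genes called between 1 h and 3 h with an absolute log2 change of at least 1. Same-numbered libraries deviated together in all 3 pairs of lines, by correlations from 0.419 to 0.605, so the numbers were taken to pair the libraries. The pulldown in sample replicate pairs does not settle this, as a pair may be the 2 libraries of a line. The biological coefficient of variation was 9.46% with the block and 19.5% without. Between the 2 replicates of a line, chi-square per degree of freedom over genes was 15.5 to 18.7, so neither was a copy of the other. Libraries of different lines were not compared in this way. Gene coordinates and types come from GENCODE, matched by identifier for 99.7% of rows.

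Named genes were NR3C1, the 15 higher and 15 lower shared genes with the largest smaller difference, the 5 higher and 5 lower of each mutant by p among those that also differed between the mutants, members called of the fixed lists and 16 genes named in any case. Lists of histone, mitochondrial, amino acid, NF-kB and cholesterol genes were added after seeing the data. So were the 15 in each direction also called at 1 h to 3 h. Of 19 cholesterol synthesis and uptake genes tested, 6 were higher in SoF and 2 in both, beside 7.01% and 2.13% of all genes. None was higher at 1 h to 3 h in either mutant, and none was higher in both with no replicate block. The scripts were tested on simulated data, in which the replicate difference was the same in all 3 lines. An unequal replicate gap between lines, as in these data, was not simulated. Alternatives were no block, all 24 libraries, DESeq2 1.42.0 with and without the block, its size factors, no low-count filter, the legacy fit, a minimum log2 change of 1 and each library left out. Depth limits precision, and counting error alone is far below the replicate spread at these totals.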

Additional observations from a re-analysis of the deposited data

Results flagged for a closer look

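SoF and Ctrl moved in opposite directions from the same wt libraries at 14 genes. All 14 differed in the direct test between the mutants, which opposite calls in the same fit make nearly certain. That test therefore adds no support. SARAF, a regulator of store-operated calcium entry, was one of them: it stood at 94.9 and 106 CPM in wt, 217 and 203 in SoF and 75.1 and 79.1 in Ctrl, a log2 difference of SoF from Ctrl of 1.45. Its Ctrl call was lost without any 1 library except wt replicate 1. The others with a symbol were FOXS1, KIF13B, KRTAP2-3, LINC02074, LRRC17, PBK, SEMA3A and TGM2, named after their values were seen. Among GR targets, the direct difference of SoF from Ctrl was 1.78 for PDK4, which was lower in Ctrl, and -1.19 for MMP3, which was higher in Ctrl.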

How the results depend on the processing

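The calls at 0 h rest on the replicate block. In the order SoF against wt, Ctrl against wt, their mean against wt, SoF against Ctrl and the genes shared by both mutants, the counts were 0, 4, 0, 9 and 0 without the block by edgeR, 909, 809, 1366, 181 and 313 by DESeq2 with the block and 37, 28, 40, 48 and 2 by DESeq2 without it. Beside them, the blocked edgeR fit gave 2968, 2291, 3864, 407 and 1118. Fitted with all 24 libraries they were 1351, 826, 2056, 150 and 319 with the block and 98, 87, 115, 88 and 8 without it. Of the 1118 shared genes, 319 were called in the first of these, 312 by DESeq2 with the block, 1116 with DESeq2 size factors and 1065 with the legacy fit. Without the low-count filter, which tested 43152 genes, the counts were 411, 352, 817, 54 and 124, and with a minimum absolute log2 change of 1 they were 678, 483, 611, 132 and 160. DESeq2 without the block and all 24 libraries without it were added after seeing the data.

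With 1 library left out, the counts ran from 169 (without SoF replicate 2) to 5620 (without wt replicate 1) for SoF, from 642 (without Ctrl replicate 2) to 4469 (without wt replicate 1) for Ctrl, from 1326 to 5508 for the mean, from 101 to 1783 for SoF against Ctrl and from 104 to 3087 for the shared genes. Where only 1 library of a line was left, its variance was taken from the other lines. Of the 303 genes also called at 1 h to 3 h without overlap, 41 remained without SoF replicate 2. Without wt replicate 1 the log2 difference of CSF2 in SoF turned from 0.01 to -0.61 and that of DDIT4 in SoF from 0.16 to -0.49, and without wt replicate 2 that of MT2A in Ctrl turned from -0.14 to 0.40. Over the libraries left out, these 3 ran from -0.61 to 0.47, from -0.49 to 0.85 and from -0.66 to 0.40. The comparisons at 1 h to 3 h ran from 2782 to 5255 for SoF and 1836 to 3464 for Ctrl, and with no replicate block gave 4730 and 3058, beside 4703 and 3039 with it. Of 323 calls of named genes against wt, 83 held without any 1 library, 196 by DESeq2 with the block, 186 with all 24 libraries and the block, and 4 by edgeR without the block. The cause was not tested for any of these shifts. With 2 libraries a line and 2 residual degrees of freedom, most calls on single genes are unstable, and low counts limit genes under 1 CPM.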

Other observations

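A total of 31 shared genes kept their calls in both mutants without any 1 of the 6 libraries, 8 higher and 23 lower, and 16 of these were also called in both at 1 h to 3 h with no overlap at 0 h. Besides NR3C1 and SHOC1, the higher ones included the long noncoding RNAs KCNQ1OT1, which silences imprinted neighbours (0.82 in SoF and 0.97 in Ctrl on the log2 scale), LINC00641 (1.17 and 1.40) and TMEM161B-DT, and the histone demethylase gene KDM7A (0.81 and 0.74). The lower ones held GLUL, GPS1, OR4P4, H2AC20, H2BC18, FBXW5, LMF2, SLC12A7 and COL9A2. They also held short noncoding RNAs: RN7SL3, a copy of the signal recognition particle RNA (-1.07 and -0.77), BCYRN1 (-0.97 and -0.74) and 2 annotated copies of the nucleolar RNA SNORD3D (-0.91 and -1.01 in 1 of them). Reads of RN7SL3, SNORD3D and the mitochondrial pseudogenes in this set can also come from near-identical copies. SLC12A7 was called lower in both at 0 h and had log2 differences of -0.20 and 0.26 at 1 h to 3 h.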
